A study of Bos taurus with 12 samples.

Results

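Bone-marrow mesenchymal stromal cells (MSCs) of juvenile cattle were preconditioned for a week either with TGF-β3 or in low oxygen, and 26773 probe sets were compared between those single treatments. The comparison uses 6 of the 12 arrays of the series, with 3 donors in each group, and every TGF-β3 array has a hypoxia array of the same donor. Cells from femurs and tibiae were first grown to confluence at 21% oxygen in high-glucose medium with 10% serum, then passaged into 1 of 4 conditions. The cells called here TGF-β3 alone were kept at 21% oxygen with 10 ng/mL TGF-β3. The cells called hypoxia alone were kept continuously at 2% oxygen with no added TGF-β3. The other groups received both (2% oxygen with TGF-β3) or neither (21% oxygen, no TGF-β3). All groups shared the medium and its serum, which can itself carry growth factors. The expansion for a week was on plastic with no lineage-inducing medium named in the labels, so the lineage genes below were measured before any differentiation culture.

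TGF-β3 is a secreted ligand that signals through paired serine/threonine kinase receptors to SMAD2 and SMAD3, which switch on matrix, contractile and feedback genes, and it is the usual factor for driving MSCs towards cartilage. Low oxygen acts on a different sensor: prolyl hydroxylases stop marking HIF-1α and HIF-2α for destruction, and HIF then raises glycolysis, lactate export, angiogenic factors and mitochondrial regulators. Both agents are used to prime MSCs before cartilage repair, and the design allows each to be set against the other in cells of the same animals.

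The deposited values are log2 signals after robust multi-array averaging, so a difference of 1 is a change of 2-fold. Array medians ran from 6.59 to 6.66 and first quartiles from 4.89 to 4.98. The values come with no detection call, so for signals near or below the first quartile it was not tested whether the gene was above background. The mean signal of 18 stromal markers per array was 9.76 to 9.82 with TGF-β3 alone and 10.07 to 10.23 with hypoxia alone. Lists for blood, endothelial, red, osteoclast and muscle or neural cells averaged between 5.32 and 6.11 per array in these groups. Signals of different probe sets are not on a common scale, so these means describe each list and do not rank them. The leukocyte marker PTPRC lay at 4.08 to 4.28 with TGF-β3 alone and 4.06 to 4.22 with hypoxia alone. VCAM1, at 3.43 to 3.88 with TGF-β3 alone and 3.96 to 4.81 with hypoxia alone, and LEPR, at 4.04 to 4.12 with TGF-β3 alone and 3.83 to 4.16 with hypoxia alone, were the 2 stromal markers below the first quartile on average over the 12 arrays. In these bulk cultures, fewer cells of a type and less RNA per cell cannot be told apart.

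The cultures differed widely. At an adjusted p of 0.05 or less (limma with donor as a block, Benjamini-Hochberg over all probe sets), 2353 of 26773 probe sets differed, which is 8.79%. Of these, 1056 were higher with TGF-β3 alone (3.94%) and 1297 were lower (4.84%). At least a 2-fold difference was reached by 416 (1.55%), 153 higher and 263 lower, and at least 4-fold by 60, 23 higher and 37 lower. The arrays of the groups did not overlap for 2080 of the 2353, against 19.9% of all probe sets, and all 2353 had 1 direction in the 3 donors, against 40.4% of all probe sets. The called probe sets were selected by p on these same arrays, so both counts largely follow from the selection. They are not separate support. The counts fell most when donor 1 or donor 2 was left out: 512 probe sets were called without donor 1, 444 without donor 2 and 1628 without donor 3. Leaving out only the TGF-β3 array of donor 2 gave 1137 calls, that of donor 1 1368, and the hypoxia arrays of donors 2 and 1 gave 1339 and 1419. The differences of donors 1 and 2 correlated across probe sets with r = 0.554, those of donors 1 and 3 with r = 0.428 and those of donors 2 and 3 with r = 0.459 (a description, since probe sets of an array are not independent).

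The widest gaps on the TGF-β3 side were in ALDH1A1, which makes retinoic acid from retinaldehyde, and PADI4, which converts protein arginine into citrulline. ALDH1A1 had signals of 12.77, 12.98 and 12.36 with TGF-β3 alone in donors 1, 2 and 3, against 7.86, 7.88 and 6.24 with hypoxia alone. PADI4 had 12.25, 12.53 and 11.16 with TGF-β3 alone and 7.09, 7.44 and 6.04 with hypoxia alone. For both genes every TGF-β3 array lay far above every hypoxia array: ALDH1A1 was 41.4-fold higher (adjusted p = 0.000125, limma) and PADI4 34.9-fold higher (adjusted p = 1.03e-06, limma). The growth factor FGF18, which acts on chondrocytes through FGFR3, had 9.40, 9.26 and 9.08 with TGF-β3 alone, against 6.47, 6.31 and 7.04 with hypoxia alone, a 6.22-fold difference (adjusted p = 0.000183, limma). The prostaglandin E receptor gene PTGER3 was 8.5-fold higher, the membrane glycoprotein gene EMB 8.44-fold, and ITGA2, the collagen-binding integrin α2 chain, 4.64-fold.

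On the other side stood ABI3BP, an extracellular matrix protein of stromal cells, and FABP4, the fatty acid carrier of adipocytes. ABI3BP had 4.78, 4.66 and 5.54 with TGF-β3 alone and 9.56, 12.17 and 11.29 with hypoxia alone, so it was 64.7-fold lower with TGF-β3 alone (adjusted p = 0.000322, limma). FABP4 had 3.37, 3.52 and 5.12 with TGF-β3 alone and 7.81, 8.13 and 9.05 with hypoxia alone, 20.1-fold lower (adjusted p = 3.7e-05, limma). ABI3BP in donors 1 and 2 and FABP4 in the same donors lay below the first quartile of the arrays with TGF-β3 alone, where no detection call separates signal from background. ANGPT2, a ligand of the vascular receptor TIE2, had 6.20, 6.12 and 6.48 with TGF-β3 alone and 9.70, 9.23 and 9.85 with hypoxia alone (adjusted p = 3.7e-05, limma). The cytochrome P450 gene CYP1B1 was 10.1-fold lower, at 5.48 to 5.81 with TGF-β3 alone and 8.45 to 9.81 with hypoxia alone. The chemokine genes CXCL5 and CXCL3 were 7.07-fold and 6.06-fold lower with TGF-β3 alone, and IGFBP5, an IGF-binding protein, 6.43-fold lower. All genes of these paragraphs kept their call without any single donor except CYP1B1, whose adjusted p without donor 2 was 0.0711.

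**Figure D1:**
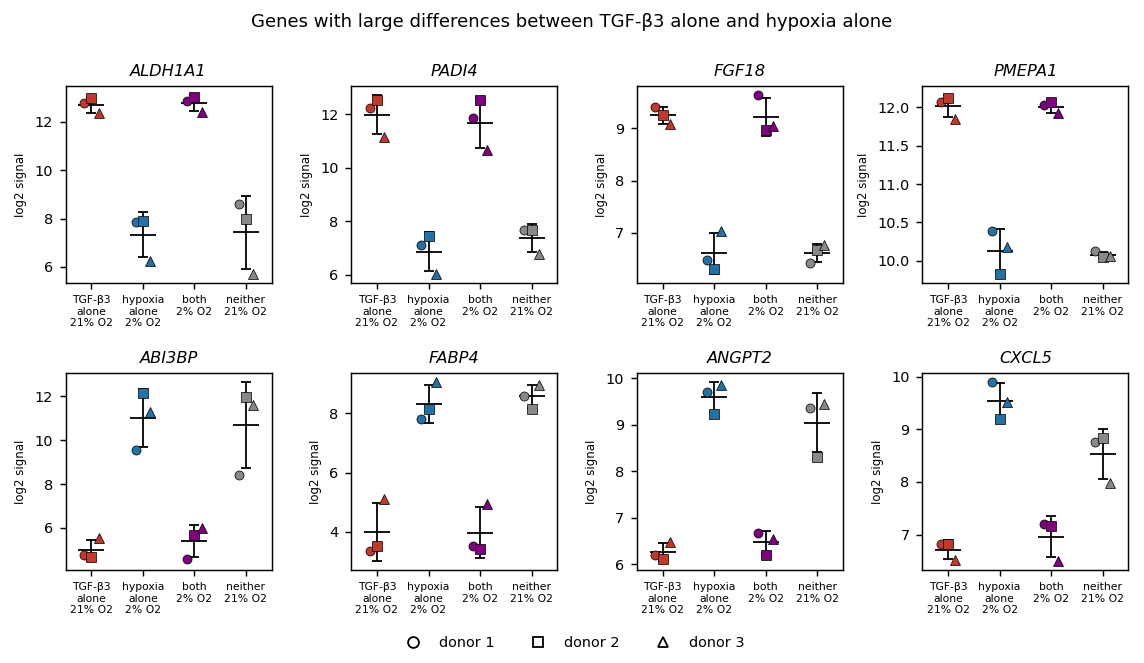
Log2 signal of 8 genes on each of the 12 arrays, in the order TGF-β3 alone, hypoxia alone, both and neither; symbols mark donors 1 to 3, horizontal bars the mean and whiskers the SD (n = 3). In every panel the TGF-β3 alone arrays are clear of the hypoxia alone arrays, as with ALDH1A1 at 12.36 to 12.98 against 6.24 to 7.88.

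The remaining 6 arrays show on which side of untreated cells a gene lies when the treatments are joined. In cells given both minus cells given neither, TGF-β3 and low oxygen pull in the same sense of the subtraction, whereas between the single treatments they stand on opposite sides. No array is shared, although donors and the estimate of spread are. In that comparison 2046 probe sets were called (7.64%), 1018 higher (3.8%) and 1028 lower (3.84%), and 1043 were called in both comparisons, which is 44.3% of the calls between single treatments and 51.0% of those of both minus neither. Of the 1056 probe sets higher with TGF-β3 alone, 452 (42.8%) were also higher with both than with neither and 1 (0.0947%) was lower. Of the 1297 lower with TGF-β3 alone, 572 (44.1%) were also lower with both than with neither, and 18 (1.39%) were higher. So 1024 of the shared calls had the same sign in both comparisons and 19 had opposite signs. The differences correlated with r = 0.595 across all probe sets and r = 0.819 across the 2353 called ones, as a description. Leaving out arrays or donors gave 62 to 393 in place of 452, 75 to 510 in place of 572, 1 to 23 in place of 18 and 0 to 8 in place of 1.

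**Figure D2:**
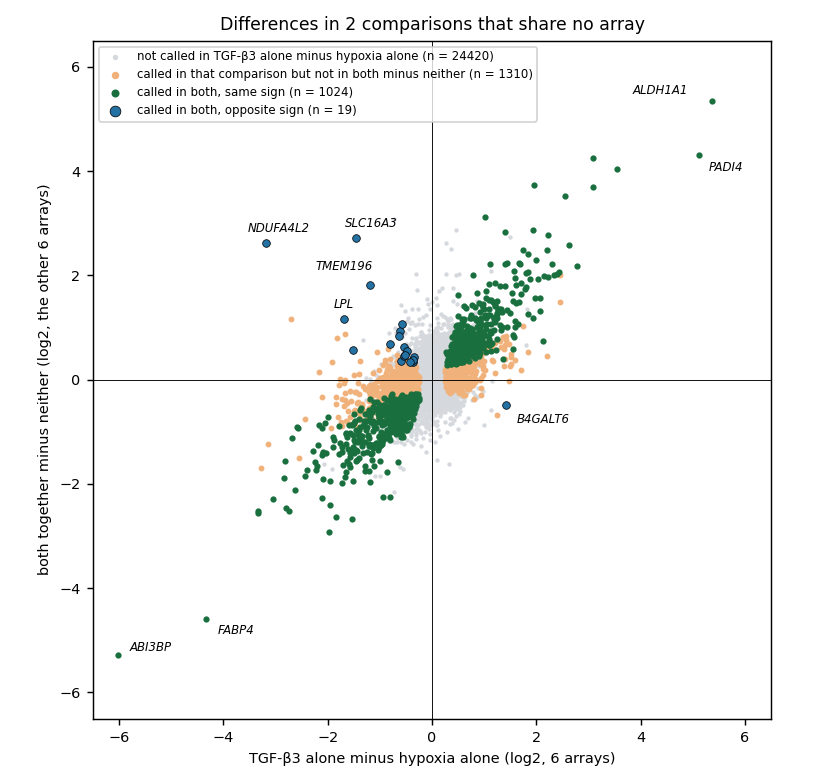
Each point is 1 of 26773 probe sets: its log2 difference TGF-β3 alone minus hypoxia alone on the x axis and both minus neither, from the other 6 arrays, on the y axis. Most of the probe sets called in both comparisons (1024) lie on the rising diagonal, lower left or upper right, and 19 lie upper left or lower right, led by NDUFA4L2, SLC16A3, TMEM196 and LPL.

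The 19 include known members of the low-oxygen response. NDUFA4L2, a HIF target that lowers mitochondrial respiration, had 6.28, 9.02 and 8.56 with TGF-β3 alone and 11.44, 11.58 and 10.43 with hypoxia alone, and 11.05, 11.48 and 10.60 with both against 7.94, 9.52 and 7.80 with neither. Its arrays at 2% oxygen did not overlap those at 21%, with or without TGF-β3, and it was 9.15-fold lower with TGF-β3 alone than with hypoxia alone (adjusted p = 0.00575, limma). SLC16A3, the lactate exporter MCT4, had 6.43, 8.01 and 7.91 with TGF-β3 alone and 9.02, 9.19 and 8.55 with hypoxia alone, 2.76-fold lower (adjusted p = 0.0138, limma). LPL, the lipase that frees fatty acids from lipoproteins, had 5.51, 5.95 and 6.13 with TGF-β3 alone and 7.41, 7.40 and 7.83 with hypoxia alone, 3.21-fold lower (adjusted p = 0.000146, limma). The glycolytic regulator PFKFB3 was 1.53-fold lower, the glycolytic enzyme GPI 1.51-fold lower, the hyaluronan synthase HAS2 1.48-fold lower and the synaptic adhesion gene CNTNAP4 2.86-fold lower. TMEM196 was called as well, 2.3-fold lower, although its arrays overlapped, at 6.75 to 8.29 with TGF-β3 alone and 7.42 to 9.43 with hypoxia alone. The single gene with the opposite pattern was B4GALT6, a galactosyltransferase that makes lactosylceramide, with 9.58, 9.24 and 8.52 with TGF-β3 alone and 8.12, 7.98 and 6.99 with hypoxia alone. LPL, CNTNAP4 and B4GALT6 kept their calls without any single donor. Without donor 2 the adjusted p was 0.0799 for NDUFA4L2, 0.133 for SLC16A3, 0.0754 for PFKFB3, 0.0847 for GPI, 0.253 for HAS2 and 0.266 for TMEM196. GPI, HAS2 and TMEM196 also lost their calls without donor 1 (adjusted p 0.0619, 0.222 and 0.133, limma). PFKFB3 lost its call without donor 1 or donor 3 as well (0.17 and 0.0827).

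Each single treatment was also set against the untreated cells, which share arrays with the main comparison, so the values are given side by side only. TGF-β3 alone minus neither gave 1701 called probe sets (6.35%). Hypoxia alone minus neither gave 3 (0.0112%): LPL and CNTNAP4 were higher with hypoxia alone and B4GALT6 lower, each with an adjusted p of 0.0074 (limma), while 2253 probe sets (8.42%) had an unadjusted p of 0.05 or less. The count for hypoxia alone was 18 over probe sets above the median signal, 20 with 1 probe set per symbol and 0 without donor 1 or without donor 2.

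Most of the listed TGF-β target genes stood higher in the TGF-β3 cells. The gene lists here and below were written with earlier results of these data known, so their counts are descriptive and test nothing. Of 27 measured TGF-β target genes, 16 were higher with TGF-β3 alone and 3 lower, with a median difference of 0.58 on the log2 scale. Over all 18087 symbols, 4.84% were higher and 6.39% lower and the median was 0.01, the background for this list and those below. FSTL3, a secreted binder of activins, had 11.24, 11.08 and 10.95 with TGF-β3 alone and 9.08, 8.48 and 8.78 with hypoxia alone, 4.95-fold higher (adjusted p = 3.7e-05, limma). The protease ADAM19 was 3.42-fold higher, the integrin β3 chain ITGB3 2.93-fold, the parathyroid hormone-related protein gene PTHLH 4.1-fold, and the cytokines LIF and IL11 3.15-fold and 1.98-fold. CCN2, long used as a TGF-β reporter, differed by 1.33-fold from an already high signal (12.70 to 12.91 with hypoxia alone). The 3 lower members were PRG4, the cell cycle inhibitor CDKN1A and the transcription factor TWIST1. The count of higher targets was 9 without donor 1, 7 without donor 2 and 14 without donor 3, and the calls of CCN2, CDKN1A, TWIST1 and PRG4 were among those that did not hold without donor 2 (adjusted p 0.217, 0.0662, 0.0895 and 0.133). Nor did they hold without donor 1 (0.157, 0.134, 0.267 and 0.0577), and CDKN1A and TWIST1 lost theirs without donor 3 too (0.0584 and 0.14).

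Among 26 ligands, receptors and SMAD feedback genes, 7 were higher with TGF-β3 alone and 5 lower, with a median of −0.06. PMEPA1, which holds SMAD2 and SMAD3 away from the receptor, had 12.07, 12.11 and 11.85 with TGF-β3 alone against 10.39, 9.83 and 10.18 with hypoxia alone, 3.67-fold higher (adjusted p = 0.000105, limma). SKIL, a nuclear brake on SMADs, was 2.15-fold higher. SMAD7, the usual inhibitory feedback gene, had 9.26, 8.82 and 9.27 with TGF-β3 alone and 9.12, 8.45 and 9.02 with hypoxia alone. Its groups overlapped and it was not called (adjusted p = 0.171, limma), and beside untreated cells it was 0.67 higher with TGF-β3 alone and 0.41 higher with hypoxia alone on the log2 scale. Another TGF-β-induced gene, TGFBI, was not called either (1.28-fold, adjusted p = 0.465, limma). The ligand gene TGFB2 stood 2.35-fold higher with TGF-β3 alone, at 10.75, 10.66 and 10.38 against 9.23, 9.39 and 9.47, with untreated cells in between at 9.92 to 10.21. Its latency partner LTBP1 was 1.88-fold higher, LTBP3 1.42-fold lower, and TGFBR3, the betaglycan coreceptor, 2.97-fold lower. Without donor 1, 2 or 3 the higher count of this list was 3, 4 and 7 and the lower count 1, 1 and 3, and LTBP3 was not called without donor 1 or 2 (adjusted p 0.253 and 0.324), nor LTBP1 without donor 1 (0.0643).

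**Figure D3:**
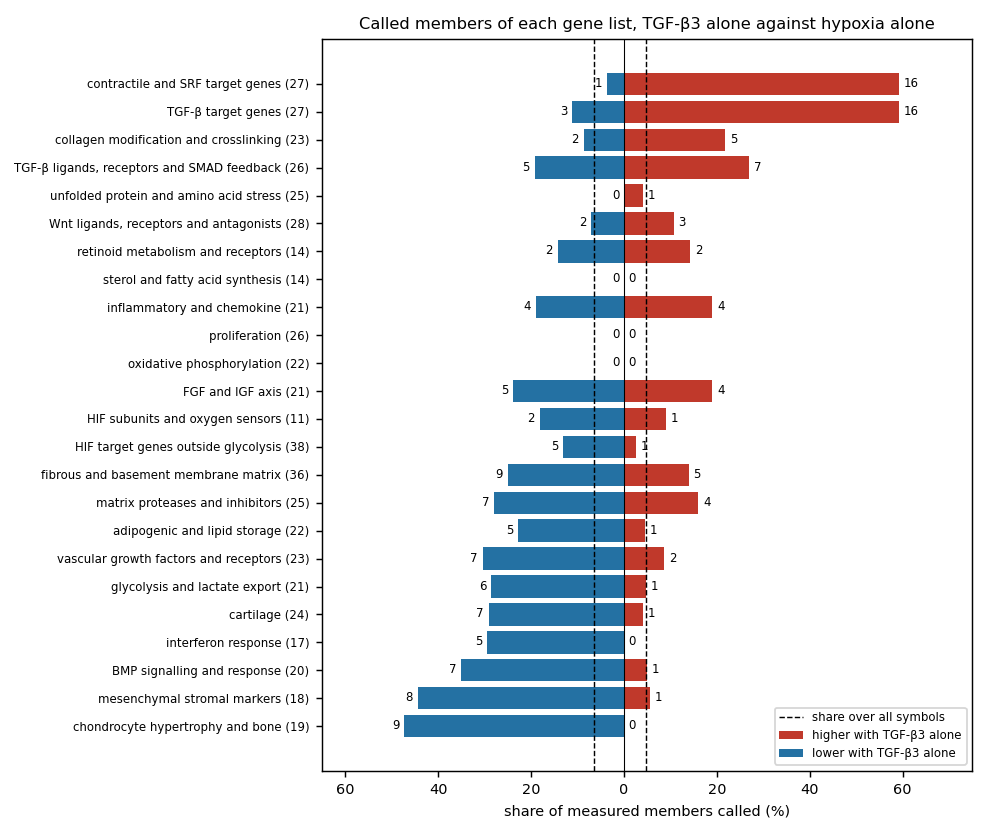
Share of the measured members (number in parentheses) of 24 gene lists called higher (right) or lower (left) with TGF-β3 alone than with hypoxia alone, with the number of genes at the end of each bar; dashed lines give the share over all symbols, 4.84% higher and 6.39% lower. Contractile and TGF-β target genes reach 16 of 27 on the right, and bone genes 9 of 19 on the left.

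Contractile genes stood higher with TGF-β3 alone. Of 27 measured contractile and SRF target genes, 16 were higher with TGF-β3 alone and 1 lower, and the median difference was 0.53. Desmin (DES), the muscle intermediate filament, had 12.55, 12.27 and 11.00 with TGF-β3 alone and 10.10, 8.73 and 9.80 with hypoxia alone, 5.26-fold higher (adjusted p = 0.00557, limma). Calponin (CNN1), an actin-binding regulator of contraction, had 12.64, 12.65 and 11.40 with TGF-β3 alone and 11.37, 10.90 and 10.66 with hypoxia alone, 2.39-fold higher. Donor 3 stood lowest of the TGF-β3 arrays for both genes. LMOD1, an actin filament nucleator, was 1.96-fold higher with overlapping groups, SMTN 1.75-fold, TAGLN 1.57-fold and TPM1 1.35-fold. MYH11, the mature smooth muscle myosin heavy chain, was 1.32-fold lower at low signals of 5.28 to 5.59 against 5.55 to 6.04. The higher count was 1 without donor 1, 3 without donor 2 and 17 without donor 3, and DES, CNN1, SMTN, TAGLN, TPM1 and MYH11 each lost the call without donor 1 or donor 2 (adjusted p 0.113, 0.0577, 0.0581, 0.0577, 0.141 and 0.281 without donor 1). LMOD1 kept it.

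Genes of the low-oxygen response were divided: some stood lower with TGF-β3 alone and others did not pass the test. Of 21 glycolysis and lactate export genes, 6 were lower with TGF-β3 alone than with hypoxia alone and 1 was higher, with a median of −0.17. Of 38 HIF targets outside glycolysis, 5 were lower and 1 higher, with a median of −0.15. Beside untreated cells, the 21 glycolysis genes had a median difference of 0.35 with hypoxia alone (all 21 above 0, none called by limma, 15 at an unadjusted p of 0.05 or less) and of 0.18 with TGF-β3 alone (5 called higher and 1 lower, where 3.63% and 4.5% of all symbols were). At an unadjusted p of 0.05 or less (limma), 22 of the 38 other HIF targets were higher with hypoxia alone than with neither. None of the 38 was lower at that p, none was called, and their median difference was 0.28. Over all probe sets, 8.42% had such a p in either direction. That share, like the 22.0% given below for the main comparison, includes probe sets with no symbol, which the lists leave out. The share over 1 probe set per symbol was not computed. With TGF-β3 alone minus neither, 5 of the 38 were called higher and 2 lower, with a median of 0.165. For both minus neither, 13 of the 21 and 21 of the 38 were called higher, against 4.68% of all symbols.

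ADM, the vasodilator peptide adrenomedullin, had 6.74, 7.00 and 8.38 with TGF-β3 alone and 9.68, 9.64 and 9.33 with hypoxia alone, 4.52-fold lower (adjusted p = 0.00361, limma). ADM in untreated cells lay between, at 8.51 to 8.67. The aldolase ALDOC was 2.3-fold lower with TGF-β3 alone, NDRG1 1.69-fold, the lipoprotein receptor VLDLR 1.58-fold, the pyruvate dehydrogenase kinase PDK3 1.52-fold, PFKFB4 1.48-fold and pyruvate kinase (PKM) 1.22-fold. The exceptions were PLOD2, a collagen lysyl hydroxylase, with 12.31, 12.52 and 12.26 with TGF-β3 alone and 11.64, 11.60 and 11.61 with hypoxia alone (1.68-fold higher, adjusted p = 0.000768, limma), and SLC16A1, the lactate carrier MCT1, 1.48-fold higher. The lower count was 2, 1 and 4 for glycolysis and 1, 0 and 9 for the other HIF targets without donors 1, 2 and 3. Of the genes in this paragraph, ALDOC and PLOD2 kept their calls without any donor, and the others lost them without donor 2 (adjusted p 0.111 for ADM, 0.157 for NDRG1, 0.125 for VLDLR, 0.153 for PDK3, 0.18 for PFKFB4, 0.225 for PKM and 0.0771 for SLC16A1). ADM, NDRG1, VLDLR, PDK3, PFKFB4 and PKM also lost them without donor 1 (0.0822, 0.159, 0.151, 0.125, 0.143 and 0.201), and PKM without donor 3 (0.133).

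Several textbook hypoxia genes were not separated between the single treatments. The glucose transporter SLC2A1 had 10.36, 10.81 and 10.92 with TGF-β3 alone and 10.43, 10.18 and 9.92 with hypoxia alone, with overlapping groups and an adjusted p of 0.0964 (limma). Against untreated cells it was 1.39 higher with TGF-β3 alone (adjusted p = 0.0016, limma) and 0.87 higher with hypoxia alone (adjusted p = 0.22, limma) on the log2 scale. VEGFA, the main angiogenic factor, had 12.00, 12.12 and 12.41 with TGF-β3 alone and 12.06, 11.91 and 12.05 with hypoxia alone (adjusted p = 0.328, limma). PDK1, a pyruvate dehydrogenase kinase like PDK3, had 10.33, 10.95 and 10.63 against 10.90, 11.12 and 10.65 (adjusted p = 0.182, limma). For SLC2A1, VEGFA and PDK1 the cells given neither lay below both single treatments on average and the cells given both lay above them. Carbonic anhydrase CA9 had 5.39, 6.11 and 5.96 with TGF-β3 alone and 6.76, 7.43 and 5.43 with hypoxia alone. Donor 3 alone went the other way for CA9: the adjusted p was 0.255 with all donors and 0.0308 without donor 3. ANKRD37 and EGLN3, other HIF targets, were not called (adjusted p 0.595 and 0.752, limma), although ANKRD37 was called lower without donor 3 (adjusted p = 0.0399).

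**Figure D4:**
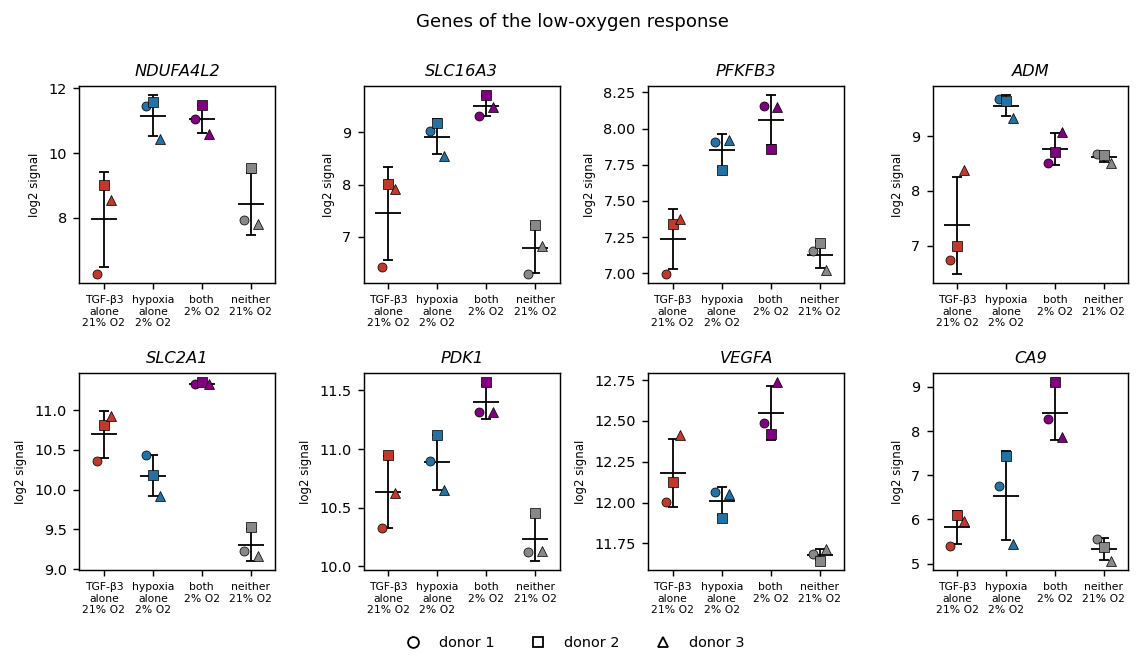
Log2 signal of 8 genes of the low-oxygen response on the 12 arrays, groups in the order TGF-β3 alone, hypoxia alone, both and neither; symbols mark donors, bars the mean and whiskers the SD (n = 3). NDUFA4L2, SLC16A3, PFKFB3 and ADM have every TGF-β3 alone array below every hypoxia alone array, whereas the groups overlap for SLC2A1, PDK1, VEGFA and CA9.

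Among 11 HIF subunit and oxygen sensor genes, 1 was higher and 2 were lower with TGF-β3 alone. HIF1A, which encodes HIF-1α, was 1.33-fold higher with TGF-β3 alone (13.11, 13.23 and 13.30 against 12.68, 12.83 and 12.88). EPAS1, which encodes HIF-2α, had 9.20, 8.87 and 8.45 with TGF-β3 alone and 9.84, 9.81 and 9.70 with hypoxia alone, 1.92-fold lower, and untreated cells had the highest signals, 10.31 to 10.50. CITED2, which competes with HIF for its coactivator, was 2.19-fold lower with TGF-β3 alone. The other 8, the prolyl hydroxylase gene EGLN3 among them, were not called. CITED2 kept its call without any donor, EPAS1 had an adjusted p of 0.0784 without donor 2, and HIF1A had 0.107, 0.139 and 0.054 without donors 1, 2 and 3. None of 22 oxidative phosphorylation subunits was called in either direction (limma), and 3 had an unadjusted p of 0.05 or less, as 22.0% of all probe sets did.

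Several lineage genes of cartilage, bone and fat stood lower with TGF-β3 alone. Of 24 measured cartilage genes, 7 were lower and 1 higher, and the median was −0.20. Aggrecan (ACAN), the main proteoglycan of cartilage, had 7.99, 8.86 and 10.02 with TGF-β3 alone and 10.62, 10.62 and 11.98 with hypoxia alone, 4.33-fold lower (adjusted p = 0.000198, limma). Link protein (HAPLN1), which anchors aggrecan to hyaluronan, had 8.17, 8.57 and 10.14 with TGF-β3 alone and 10.88, 10.86 and 11.61 with hypoxia alone, 4.47-fold lower. Untreated cells lay between on average for both, at 9.31 to 11.14 for ACAN and 10.04 to 11.27 for HAPLN1, and donor 3 had the highest signal in each group. The lubricin gene PRG4 was 4.25-fold lower, with 3.64 to 6.39 against 6.46 to 7.61.

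The chondrogenic transcription factors differed less: SOX6 was 2.14-fold lower with TGF-β3 alone, SOX9 1.39-fold and SOX5 1.32-fold. SOX9 had 8.51, 8.57 and 8.44 with TGF-β3 alone, 9.02, 8.79 and 9.14 with hypoxia alone and 8.37 to 8.69 with neither. The 7th lower gene, SCRG1, lay below the first quartile on every array. MATN3, a cartilage matrilin, was the higher one (1.54-fold, groups overlapping). Type II collagen (COL2A1) had 10.49, 9.78 and 8.55 with TGF-β3 alone and 9.27, 8.55 and 8.65 with hypoxia alone, higher with TGF-β3 alone in donors 1 and 2 and about level in donor 3. COL2A1 was not called with all donors (adjusted p = 0.132, limma) and was called without donor 3 (adjusted p = 0.00775). The lower count for cartilage was 3, 3 and 5 without donors 1, 2 and 3. ACAN and HAPLN1 kept their calls without any donor. SOX9 lost its call whichever donor was left out (adjusted p 0.205, 0.111 and 0.161 without donors 1, 2 and 3, limma). SOX5, SCRG1 and MATN3 lost theirs without donor 1 (0.211, 0.183 and 0.355). SOX5 and MATN3 also lost theirs without donor 2 (0.283 and 0.229), and SCRG1 without donor 3 (0.106). SOX6 lost its call without donor 2 (0.064), and PRG4 without donor 1 or donor 2 (0.0577 and 0.133).

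Of 19 hypertrophy and bone genes, 9 were lower with TGF-β3 alone and none higher (limma, and none higher at an unadjusted p of 0.05 or less), with a median of −0.23. Osterix (SP7), a transcription factor needed for osteoblasts, had 6.90, 6.55 and 7.68 with TGF-β3 alone and 8.59, 7.82 and 9.41 with hypoxia alone, 2.95-fold lower (adjusted p = 0.00147, limma). MEF2C, a regulator of chondrocyte hypertrophy, was 2.58-fold lower, the homeobox genes DLX3 and DLX5 2.61-fold each, and the bone proteoglycan gene OMD 3.06-fold lower. Another OMD probe set differed less, at −0.87 on the log2 scale (adjusted p = 0.0274, limma). RUNX2, the factor upstream of osterix, had 11.03, 11.10 and 10.85 with TGF-β3 alone and 11.25, 11.02 and 11.03 with hypoxia alone and was not called (adjusted p = 0.58, limma). MMP13, the collagenase of hypertrophic cartilage, was 3.09-fold lower at signals of 3.29 to 3.73 against 4.18 to 5.94. The lower count was 3, 5 and 6 without donors 1, 2 and 3. SP7, MEF2C and OMD kept their calls, while DLX3, DLX5 and MMP13 lost theirs without donor 1 (adjusted p 0.0772, 0.0947 and 0.0889).

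BMPs are ligands that act in both bone and cartilage formation. Of 20 genes of BMP signalling, 7 were lower with TGF-β3 alone and 1 higher, with a median of −0.25. The ligands BMP4 and BMP2 were 1.76-fold and 2.31-fold lower. ID2, a transcriptional inhibitor induced by BMPs, had 10.47, 10.30 and 9.74 with TGF-β3 alone and 11.29, 11.17 and 11.19 with hypoxia alone, 2.06-fold lower. ID1 was 1.88-fold lower with overlapping groups and SMAD6 1.84-fold lower. The higher gene was the BMP antagonist noggin (NOG), 2.04-fold, with overlapping groups. The lower count was 2, 1 and 5 without donors 1, 2 and 3. BMP4 kept its call without any donor, and BMP2, ID1, SMAD6 and NOG did not without donor 1 (adjusted p 0.142, 0.281, 0.184 and 0.133), nor ID2 without donor 2 (0.102). BMP2, ID1, SMAD6 and NOG also lost theirs without donor 2 (0.0611, 0.0883, 0.112 and 0.214), and ID1 and SMAD6 without donor 3 (0.0688 and 0.0588).

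Of 22 adipogenic and lipid storage genes, 5 were lower with TGF-β3 alone and 1 was higher, while the median was 0.03. PPARG, the master regulator of fat cells, had 5.87, 5.93 and 5.65 with TGF-β3 alone and 6.75, 6.45 and 7.50 with hypoxia alone, 2.12-fold lower (adjusted p = 0.0104, limma). FABP4 and LPL, described above, adiponectin (ADIPOQ, 2.35-fold) and the lipid droplet coat gene PLIN2 (1.39-fold) were the other lower ones. They did not lie on the same side of untreated cells: FABP4 was 4.57 lower with TGF-β3 alone than with neither on the log2 scale (adjusted p = 5.8e-05, limma), and LPL was 1.50 higher with hypoxia alone than with neither (adjusted p = 0.0074, limma). G0S2, an inhibitor of triglyceride lipase, was higher with TGF-β3 alone, at 9.12, 10.07 and 10.10 against 7.62, 7.12 and 7.88, 4.68-fold. The lower count was 2, 3 and 4 without donors 1, 2 and 3. PPARG and ADIPOQ lost their calls without donor 1 (adjusted p 0.104 and 0.236), and PLIN2 lost its call without donor 1, 2 or 3 (0.0689, 0.184 and 0.0636).

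**Figure D5:**
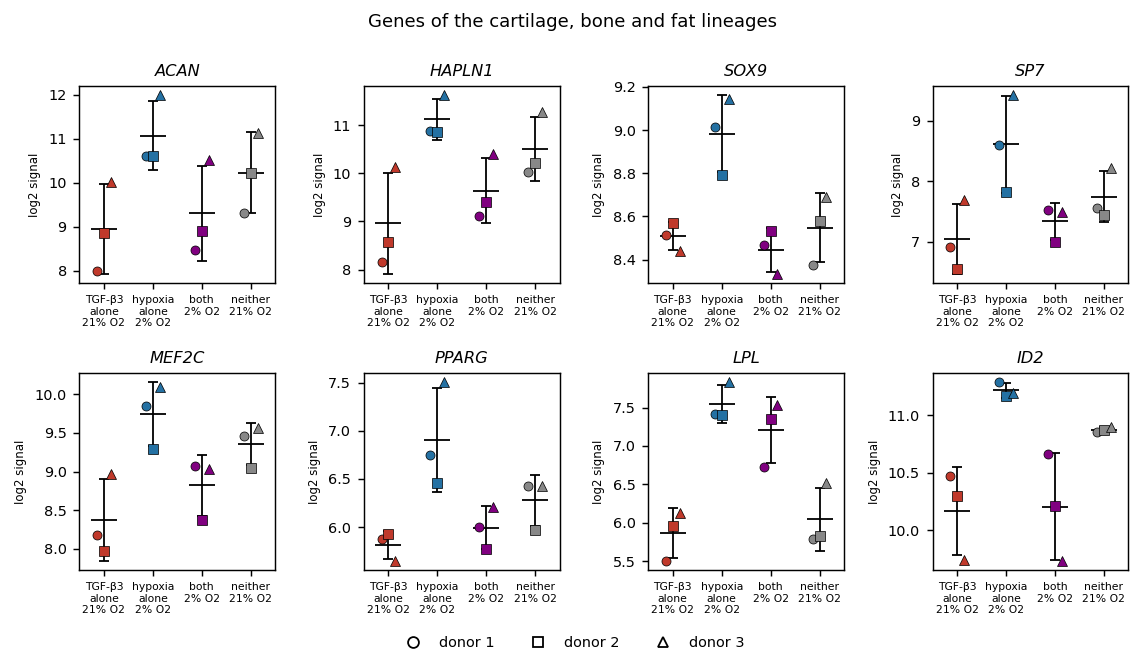
Log2 signal of 8 lineage genes on the 12 arrays, groups in the order TGF-β3 alone, hypoxia alone, both and neither; symbols mark donors, bars the mean and whiskers the SD (n = 3). In each panel the TGF-β3 alone arrays lie below the hypoxia alone arrays, as with ACAN at 7.99 to 10.02 against 10.62 to 11.98. The 8 genes were picked from those called lower and do not stand for their lists. MATN3 and G0S2, called higher, and COL2A1 and RUNX2, not called, are not shown.

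Matrix genes differed in both directions. Of 36 fibrous and basement membrane genes, 5 were higher with TGF-β3 alone and 9 lower, with a median of −0.06. Periostin (POSTN), a matricellular protein of stressed connective tissue, had 12.50, 12.00 and 12.95 with TGF-β3 alone and 11.39, 9.31 and 10.94 with hypoxia alone, 3.84-fold higher. Dermatopontin (DPT) was 3.87-fold and fibulin 5 (FBLN5), an elastic fibre protein, 2.31-fold higher. Decorin (DCN), a proteoglycan that binds collagen and TGF-β, had 11.91, 11.84 and 12.59 with TGF-β3 alone and 13.37, 13.38 and 13.29 with hypoxia alone, 2.35-fold lower. Type III collagen (COL3A1) was 1.65-fold and EFEMP1 3.88-fold lower. Of 23 collagen-modifying genes, 5 were higher and 2 lower (median −0.03). The lysyl oxidase LOXL4 stood out with 11.20, 11.33 and 10.96 with TGF-β3 alone and 8.68, 8.48 and 9.73 with hypoxia alone, and untreated cells lay between at 9.63 to 10.22. The count of collagen-modifying genes was 1, 3 and 3 higher and 1, 1 and 2 lower without donors 1, 2 and 3, and 2 to 4 higher when any 1 array of these groups was left out. The matrix count was 2, 1 and 3 higher and 2, 1 and 10 lower without donors 1, 2 and 3. The calls of POSTN, DPT, COL3A1 and EFEMP1 did not hold without donor 2 (adjusted p 0.139, 0.143, 0.113 and 0.132), nor those of FBLN5, DCN and LOXL4 without donor 1 (0.0524, 0.054 and 0.0839).

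Of 25 matrix proteases and inhibitors, 4 were higher and 7 lower (median −0.29). The urokinase gene PLAU and its receptor PLAUR were 2.3-fold and 2.15-fold higher with TGF-β3 alone, and neither call held without donor 1 (adjusted p 0.167 and 0.0612). Protease nexin (SERPINE2), which inhibits urokinase and thrombin, had 11.17, 11.22 and 11.26 with TGF-β3 alone and 12.57, 12.96 and 12.84 with hypoxia alone, 2.98-fold lower, and the metalloproteinase MMP19 was 2.81-fold lower. SERPINE2 and MMP19 kept their calls without any donor. The list gave 1, 1 and 3 higher and 2, 3 and 6 lower without donors 1, 2 and 3.

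The stromal identity markers were lower with TGF-β3 alone for 8 of 18 genes and higher for 1 (ITGA5, 1.49-fold), with a median of −0.32. NT5E, which encodes CD73, had 10.78, 11.41 and 11.98 with TGF-β3 alone and 12.05, 12.75 and 12.62 with hypoxia alone, 2.11-fold lower. CXCL12, the niche chemokine of marrow stroma, was 2.7-fold lower, PDGFRA 2.01-fold, THY1 (CD90) 1.73-fold with overlapping groups, PDGFRB 1.72-fold and the transcription factor PRRX1 1.56-fold. All of these were above the array median of 6.66. The lower count was 0 without donor 1, 0 without donor 2 and 7 without donor 3. With donor 1 left out the adjusted p was 0.0749 for NT5E, 0.254 for CXCL12, 0.138 for PDGFRA, 0.0664 for THY1, 0.0853 for PDGFRB and 0.0612 for PRRX1. That of ITGA5 was 0.0549, 0.211 and 0.0663 without donors 1, 2 and 3.

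Secreted signals went both ways. In the inflammatory and chemokine list, 4 of 21 genes were higher with TGF-β3 alone (PTGER3, LIF, IL6 and TNFAIP6) and 4 lower (CXCL5, CXCL3, CSF1 and PTGER4), with a median of −0.16. IL6 had 11.14, 10.93 and 11.99 with TGF-β3 alone and 9.78, 9.77 and 9.48 with hypoxia alone, 3.19-fold higher. CXCL3 had 4.93, 4.90 and 4.57 with TGF-β3 alone, near or below the first quartile, and 7.94, 7.07 and 7.19 with hypoxia alone. Of 23 vascular factors and receptors, 7 were lower and 2 higher (median −0.17): beside ANGPT2 and ADM, the semaphorin and VEGF coreceptor NRP1 was 4.34-fold and the hepatocyte growth factor HGF 3.57-fold lower, and FLT1 and PDGFA were 1.89-fold and 1.66-fold higher. PECAM1, a junction protein of endothelial cells, was 3.36-fold higher with TGF-β3 alone (7.64, 7.90 and 8.65 against 6.45, 6.33 and 6.17). The other 8 endothelial markers were not called, with CDH5 at 5.69 to 6.12 against 5.68 to 5.96 and VWF at 5.89 to 6.22 against 6.22 to 6.30. The vascular list gave 3, 5 and 6 lower and 0, 0 and 3 higher without donors 1, 2 and 3, and its median was −0.03 without the hypoxia array of donor 3. The inflammatory list gave 2, 4 and 3 higher and 2, 2 and 4 lower without donors 1, 2 and 3. Without donor 1 or donor 2 the calls of IL6 (adjusted p = 0.071 without donor 1), HGF (0.126 without donor 2), FLT1 (0.0918 without donor 1), PDGFA (0.159 without donor 1) and CSF1 (0.169 without donor 1) did not hold, nor PTGER4 (0.264 without donor 1) or TNFAIP6 (0.0504 without donor 1). NRP1, LIF and PECAM1 kept theirs.

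The FGF and IGF axis gave 4 higher (FGF18, FGF5, FGF1 and IGFBP2) and 5 lower of 21 genes, with a median of 0.01. IGFBP2 had 11.94, 11.91 and 10.35 with TGF-β3 alone and 9.83, 9.67 and 8.51 with hypoxia alone, 4.19-fold higher, while IGFBP5 moved the other way. In the retinoid list, 2 of 14 were higher (ALDH1A1 and DHRS3) and 2 lower (the receptors RARG, 1.96-fold, and RARA, 1.46-fold). Another DHRS3 probe set was not called (0.66 on the log2 scale, adjusted p = 0.0653, limma). Of 28 Wnt genes, 3 were higher, with NKD1, an intracellular Wnt inhibitor, at 2.81-fold beside WNT2B and FZD7, and 2 lower (DKK3, 2.27-fold, and FZD8). Over all symbols 4.84% were called higher and 6.39% lower, and the lower Wnt count was near that share. Of 17 interferon response genes, 5 were lower and none higher by limma (1 higher at an unadjusted p of 0.05 or less, median −0.13): IFI6 had 9.93, 10.54 and 10.10 with TGF-β3 alone and 11.29, 11.40 and 11.30 with hypoxia alone, and MX1 and IFIT3 were 2.76-fold and 1.95-fold lower. The interferon count was 2, 1 and 5 without donors 1, 2 and 3, with IFI6, MX1 and IFIT3 at adjusted p of 0.0711, 0.17 and 0.111 without donor 2. Without donors 1, 2 and 3 the FGF and IGF axis gave 3, 3 and 5 higher and 3, 1 and 3 lower, and its lower count was 2 without either array of donor 1. The Wnt list gave 1, 1 and 4 higher and 2, 1 and 1 lower, and the retinoid list 1, 1 and 2 higher and 1, 1 and 2 lower. The calls of FGF1, DHRS3, RARA, WNT2B and FZD7 did not hold without donor 1 or without donor 2 (adjusted p without donor 2 of 0.129, 0.286, 0.225, 0.227 and 0.384). FZD8 kept its call without donor 1 and lost it without donors 2 and 3 (adjusted p 0.161 and 0.105).

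Few genes of growth and housekeeping programmes passed the test between the single treatments. None of 26 proliferation genes was called (limma), with a median of 0.14 and 5 genes at an unadjusted p of 0.05 or less, all 5 higher with TGF-β3 alone. Beside untreated cells their median was 0.24 with TGF-β3 alone (26 above 0) and 0.10 with hypoxia alone (24 above 0), with none called. For both minus neither 7 were called higher, against 4.68% of all symbols. None of 14 sterol and fatty acid synthesis genes was called (limma), and 0 had an unadjusted p of 0.05 or less. Of 25 genes of the unfolded protein and amino acid stress response, SLC7A5, an amino acid transporter, was called (1.47-fold higher with TGF-β3 alone), with a median of 0.27. At an unadjusted p of 0.05 or less (limma), 11 of the 25 were higher and 0 lower, where 22.0% of all probe sets had such a p. That list was sensitive to donor 3: 9 genes were called higher without donor 3 and 0 without donor 1 or donor 2. No blood, red cell, muscle or neural marker was called (limma), with 0 of 9, 3 of 5 and 0 of 6 at an unadjusted p of 0.05 or less. The 3 red cell markers were all higher with TGF-β3 alone, where 22.0% of all probe sets had such a p in either direction. The median of the 5 was 0.24, and none of them lay above the median signal. The osteoclast list gave CTSK, a cathepsin also expressed by stromal cells, 1.29-fold lower and not called when any of the donors was left out (adjusted p 0.17, 0.118 and 0.152).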

How the data were processed

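Total RNA of 12 cultures (3 donors in 4 conditions) was hybridised to Affymetrix bovine whole-transcript arrays. The deposited values are log2 signals per probe set; robust multi-array averaging (RMA) and Partek 6.6 are named in the submitters' processing notes, with no setting given in the sources used here. Of 26773 probe sets, 18550 have 1 gene symbol in the platform annotation, 595 several and 7628 none. A symbol was represented by its probe set with the highest mean.

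A linear model with group and donor as terms was fitted to all 12 arrays (limma 3.58.1, R 4.3.3, empirical Bayes, two-sided, Benjamini-Hochberg over all probe sets, adjusted p of 0.05 or less). With 3 arrays per group their number limits the precision. Donors in the labels are separate animals, and pairing by donor was checked: deviations from the group means correlated at 0.2422 to 0.3741 between TGF-β3 alone and hypoxia alone arrays of the same donor and at −0.2867 to 0.0576 between different donors. On simulated data for this comparison over 26773 probe sets, 84 of 100 genes changed by 1 and 96 of 100 changed by 2 (log2) were called, with 7 false calls. The simulated noise was normal and independent between probe sets, donor effects were equal in all conditions, and no other genes changed. The real arrays can differ in each of these, so the simulated rates need not hold for them.

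Members and gene lists were chosen with earlier results of these data known, from textbook knowledge, and lists were described by counts and medians without a set test. Named genes were the 15 largest called differences each way, up to 4 called members each way of each list, a fixed set of check genes and the 5 largest of each sign combination with both minus neither. Another 20 genes (PLIN2, LTBP1, PFKFB4, PKM, PDK3, TAGLN, TPM1, COL3A1, SOX5, SCRG1, DLX3, DLX5, MEF2C, BMP4, PDGFRB, PRRX1, ITGB3, IL11, CCN2, HAS2) were singled out after their values were seen, and levels of single cell type markers (PTPRC, VCAM1, LEPR, CDH5, VWF) are given as checks. ACTA2 has no probe set of its own symbol alone and is not reported. Alternatives were the model without the donor block or with donor as a random term, the 6 arrays alone, equal medians, quantile normalisation, a signal filter, an intensity trend, 1 probe set per symbol, an adjusted p of 0.01, and each array or donor left out. No promoter sequence was used here.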

Additional observations from a re-analysis of the deposited data

How the results depend on the processing

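Without the donor block the comparison of TGF-β3 alone with hypoxia alone gave 1159 calls in place of 2353 (522 higher, 637 lower), the 6 arrays alone gave 599 (236 and 363) and an adjusted p of 0.01 gave 983 (407 and 576). Leaving out arrays or donors gave 444 to 2308 calls, 153 to 1054 higher, 290 to 1254 lower and 251 to 479 of at least 2-fold. For both minus neither the counts were 1002 (505 higher, 497 lower) without the block, 875 (464 and 411) on 6 arrays and 857 (431 and 426) at 0.01, with 249 to 2076, 136 to 1027, 113 to 1049 and 187 to 377 when arrays or donors were left out. For TGF-β3 alone minus neither they were 736 (342 and 394, 203 of at least 2-fold) without the block, 636 (283 and 353) on 6 arrays and 646 (288 and 358) at 0.01, and 181 to 1775, 85 to 813, 96 to 962 and 137 to 326 with arrays or donors left out. For hypoxia alone minus neither they were 1 (1 higher, 0 lower, 1 of at least 2-fold) without the block, with a random donor term and on 6 arrays, 18 (14, 4 and 5) above the median signal, 20 (18, 2 and 8) with 1 probe set per symbol, and 0 to 8, 0 to 6, 0 to 2 and 0 to 8 with arrays or donors left out. Smaller fits have fewer samples, and further causes were not tested. Of 132 called genes named by the rule, 46 lost the call without the block, 55 on 6 arrays, 65, 73 and 18 without donors 1, 2 and 3, and none reversed under any alternative; 88 kept it without any 1 array and 51 without any 1 donor. ANKRD37 and EGLN3, which were not called, changed sign: ANKRD37 to 0.003 without the TGF-β3 alone array of donor 1 and 0.045 without donor 1, and EGLN3 to 0.047, 0.019 and 0.103 without the TGF-β3 alone array, the hypoxia alone array or all arrays of donor 2, while without other arrays or donors they reached −0.656 and −0.299. Where an adjusted p is given without 1 donor only, the call may also have been lost without another donor. Signals below the first quartile carry no detection call.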
